A study of Mus musculus with 4 samples.

Results

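Dendritic cells are the leukocytes that take up antigen in a tissue and present it to T cells, and 10 genes that mark them or their subsets were followed here in gonadal white adipose tissue (gWAT). They were chosen by name, as the rows of the deposited expression table with the symbols Flt3, Zbtb46, Xcr1, Clec9a, Batf3, Cd209a, Itgae, Siglech, Ccl22 and Fscn1. All 10 were found among the 17335 genes of the table. Conventional dendritic cells arise under the cytokine FLT3 ligand and fall into type 1 cells (cDC1), which cross-present antigen to CD8+ T cells, and type 2 cells (cDC2), which mainly prime CD4+ T cells. Plasmacytoid dendritic cells (pDC) are known for secreting type I interferon, and conventional cells that mature leave the tissue for lymph nodes. Obese fat holds all these cells beside many more macrophages, with which dendritic cells share a number of surface genes.

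The libraries came from female mice that had been on a high-fat diet (HFD) for 18 weeks. The fl/fl mice carry the floxed Dnmt1 allele without Cre, and their AD1KO littermates carry the same allele with Cre driven by the adiponectin promoter, so that the deletion is aimed at adipocytes and not at dendritic cells. Equal amounts of gWAT RNA from 4 animals a genotype were pooled into 1 library, so every difference given here compares 1 pooled library with another, has no replicate check and no p-value. The age of the animals was not given in the sources used here.

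Expression is in FPKM, fragments per kilobase of transcript scaled to the size of the library, a unit read from the values, since the deposited table calls them only expression. Each log2 ratio is AD1KO over fl/fl after adding 0.01 FPKM to both, which understates the difference of the lowest genes. A gene was tested if it reached 0.1 FPKM in at least 1 library, which 15839 genes did, and it was counted as lower or higher in AD1KO if its log2 ratio was 0.5 or more in size, the study's own threshold. Reads per gene were estimated from the steps in the low FPKM values and summed to 17712782 in fl/fl and 17479712 in AD1KO. The 95% intervals are exact Clopper-Pearson intervals on these reads and cover counting error only. Dnmt1 stood at 6.99 FPKM in fl/fl and at 3.33 in AD1KO (log2 ratio -1.07, interval -1.27 to -0.87), a value that also counts reads outside the floxed exons. The leukocyte gene Ptprc had a log2 ratio of -1.27 (interval -1.38 to -1.17), and the intervals overlap. The part of leukocytes in the level of Dnmt1 was not tested. Adipocyte markers were abundant in both libraries, with Fabp4 at 11151 and 15920 FPKM and Adipoq at 1911 and 3318.

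The dendritic cell genes did not move as a block. Of the 10 genes, 6 were lower in AD1KO (Flt3, Xcr1, Clec9a, Batf3, Siglech and Ccl22), 2 were higher (Itgae and Cd209a) and 2 were neither (Zbtb46 and Fscn1). Over all tested genes 19.1% were lower and 14.3% higher. The median log2 ratio of the 10 genes was -0.83, against -0.04 for all tested genes, and their ratios ran from -2.17 for Clec9a to 0.74 for Itgae. All 10 passed the filter on low values. The whole counting interval lay below 0 for 6 of them (29% of all tested genes) and above 0 for 1 (21.5%). Of the 6 lower genes, 5 had the whole interval below 0, the exception being Siglech. In bulk tissue fewer cells of a type and less RNA per cell cannot be told apart, and the 10 values are no independent samples of a cell type.

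**Figure D1:**
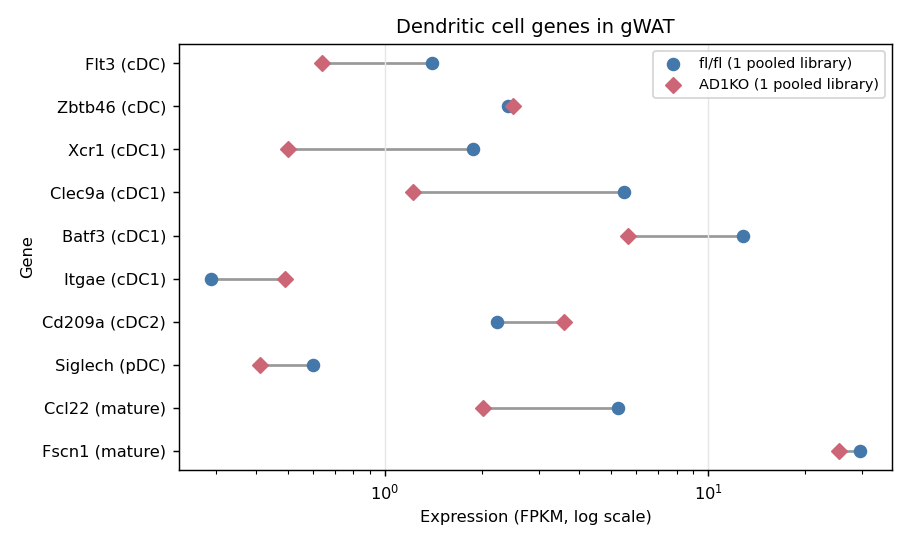
Expression of the 10 dendritic cell genes in FPKM on a log axis, with circles for the fl/fl library and diamonds for the AD1KO library, and the subset each gene marks in brackets (cDC, shared by conventional dendritic cells; mature, mature dendritic cells). Clec9a and Xcr1 have the widest gaps, from 5.51 to 1.22 and from 1.88 to 0.50 FPKM, while Itgae and Cd209a lie further right in AD1KO.

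**Figure D2:**
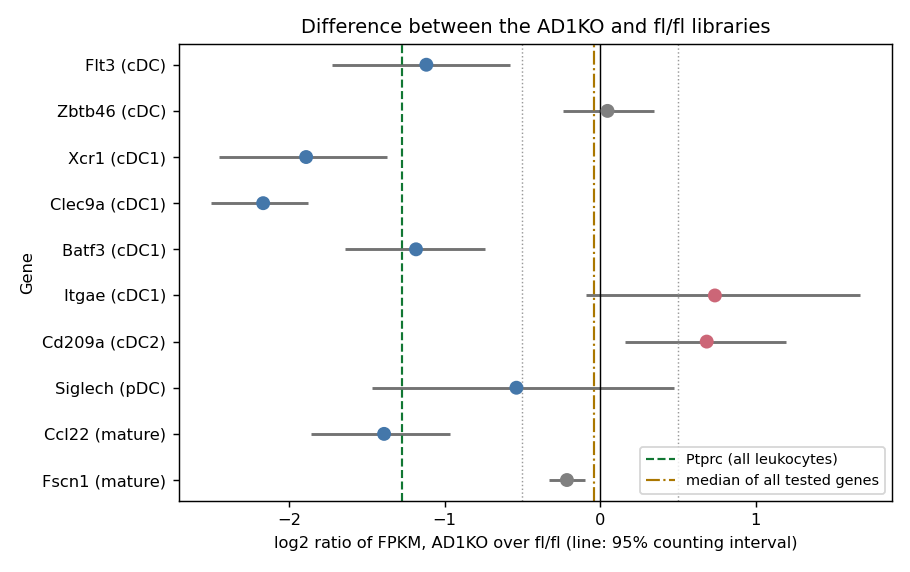
Log2 ratio of AD1KO over fl/fl for each of the 10 genes with its 95% counting interval, coloured blue where lower, pink where higher and grey where neither by the threshold of 0.5 (dotted lines). The dashed line marks Ptprc at -1.27 and the dash-dotted line the median of all tested genes at -0.04. The interval of Clec9a lies wholly left of the Ptprc line, and those of Zbtb46, Fscn1, Cd209a, Itgae and Siglech reach or pass into the range right of -0.5.

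Of the 4 cDC1 genes 3 were lower and 1 was higher, and Clec9a and Xcr1 had the lowest ratios of the 10 genes. Clec9a, a C-type lectin by which cDC1 sense the actin of dead cells (gene 232414, chr6:129358880-129374780 of mm9, plus strand), stood at 5.51 FPKM in fl/fl and at 1.22 in AD1KO. That is a 4.52-fold lower level, from about 482 and 105 reads, with a log2 ratio of -2.17 (interval -2.50 to -1.87). Only 2.34% of tested genes had a ratio as low or lower. In the GENCODE annotation 184 exonic bases of Clec9a, 5.52% of its exonic length, are also exonic in its neighbour Clec1b, which stood at 0.93 and 0.17 FPKM, about 17 and 3 reads.

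Xcr1, the chemokine receptor that brings cDC1 to cells secreting XCL1 (gene 23832, chr9:123761436-123771246, minus strand), stood at 1.88 FPKM in fl/fl and at 0.50 in AD1KO, about 143 and 38 reads. It was 3.76-fold lower (log2 ratio -1.89, interval -2.45 to -1.37), and 2.94% of tested genes had a ratio as low. The intervals of Xcr1 and Clec9a overlap, so these genes were not distinguishable in the size of their difference. Batf3, the AP-1 family transcription factor that cDC1 need to develop (gene 381319, chr1:192922293-192932822, plus strand), was at 12.9 and 5.66 FPKM, about 140 and 61 reads. Its log2 ratio of -1.18 (interval -1.64 to -0.74) was smaller in size than that of Clec9a, and their intervals do not overlap. Batf3 had the highest level of the 4 cDC1 genes in both libraries, and it is known to be expressed by T cells as well.

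Itgae, the integrin alpha E chain known as CD103 (gene 16407, chr11:72904085-72960948, plus strand), went the other way. It stood at 0.29 FPKM in fl/fl and at 0.49 in AD1KO, the lowest level of the 10 genes in fl/fl, from about 19 and 32 reads. The log2 ratio of 0.74 counted as higher, but its interval ran from -0.09 to 1.67 and holds 0, so at this depth no difference could be detected. CD103 is carried by subsets of T cells and mast cells besides cDC1 of many tissues.

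The promoters of the 3 cDC1 genes that were lower, and of Cd209a, which was higher, are shown with their CpG dinucleotides. DNMT1 maintains methylation at these sites, but the deletion is aimed at adipocytes and not at dendritic cells. Each is the 250 bases before the start of the gene from RefSeq on GRCm38.p6, read in the direction of the gene, with every CpG in capitals. Clec9a lies at chr6:129408612-129408861, Xcr1 at chr9:123862030-123862279, Batf3 at chr1:191098164-191098413 and Cd209a at chr8:3748985-3749234.
Clec9a: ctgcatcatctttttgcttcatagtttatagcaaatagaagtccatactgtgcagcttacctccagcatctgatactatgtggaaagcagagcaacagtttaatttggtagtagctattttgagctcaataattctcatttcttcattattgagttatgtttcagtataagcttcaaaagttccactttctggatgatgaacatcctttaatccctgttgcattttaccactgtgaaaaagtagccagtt
Xcr1: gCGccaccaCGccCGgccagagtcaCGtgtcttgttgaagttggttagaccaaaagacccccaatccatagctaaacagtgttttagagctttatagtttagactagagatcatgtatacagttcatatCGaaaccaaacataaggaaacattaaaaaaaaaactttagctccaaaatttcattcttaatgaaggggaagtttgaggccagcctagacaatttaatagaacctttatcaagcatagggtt
Batf3: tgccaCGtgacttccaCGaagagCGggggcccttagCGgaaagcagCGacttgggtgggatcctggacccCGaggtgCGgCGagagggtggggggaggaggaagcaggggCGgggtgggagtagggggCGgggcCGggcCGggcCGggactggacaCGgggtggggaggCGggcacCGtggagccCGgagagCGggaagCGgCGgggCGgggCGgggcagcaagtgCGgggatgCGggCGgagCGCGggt
Cd209a: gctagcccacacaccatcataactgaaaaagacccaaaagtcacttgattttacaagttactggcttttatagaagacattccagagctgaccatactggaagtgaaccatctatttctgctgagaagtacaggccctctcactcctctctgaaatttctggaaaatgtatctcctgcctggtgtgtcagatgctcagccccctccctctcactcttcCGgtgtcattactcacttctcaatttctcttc
Clec9a has 0 CpG in this window, Xcr1 5, Batf3 27 and Cd209a 1, against a median of 6 over the 27025 promoters of the RefSeq table. The 3 cDC1 genes that were lower therefore run from a promoter without CpG, as 8.26% of all promoters are, to 1 with as many as or more than 92.7% of them. The RefSeq promoters used here covered 9 of the 10 genes, and Itgae was not among them. The others held 0 (Zbtb46), 2 (Siglech), 6 (Ccl22), 13 (Flt3) and 18 CpG (Fscn1). Only 1 start was taken for each gene, and whether it is the start used in gWAT was not tested. Of 3 motifs searched on both strands of these 9 windows, the Ets-IRF composite element and the core of the interferon-stimulated response element were found in 0, where 2.38% and 3.04% of all promoters hold them. The AP-1 motif TGANTCA was found in Zbtb46 alone, where 6.87% of promoters hold it. The Ets-IRF and interferon motifs can overlap each other. Methylation of these promoters was not analysed here, and any part of CpG number in the ratios was not tested.

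Among the genes shared by conventional dendritic cells, Flt3, the receptor tyrosine kinase through which FLT3 ligand drives their development (gene 14255, chr5:148142317-148212065, minus strand), stood at 1.40 FPKM in fl/fl and at 0.64 in AD1KO, 2.19-fold lower, from about 87 and 39 reads (log2 ratio -1.12, interval -1.72 to -0.58). Zbtb46, a transcription factor that sets conventional dendritic cells apart from other myeloid cells (gene 72147, chr2:181122467-181194131, minus strand), was at 2.41 and 2.49 FPKM. Its log2 ratio was 0.05, and the interval (-0.24 to 0.35) lies wholly above that of Flt3. Endothelial cells also express Zbtb46, and the 8 endothelial markers had log2 ratios from 0.10 to 0.50, with Pecam1 at 30.1 and 32.1 FPKM and Egfl7 at 21.6 and 26.0 FPKM. The part of endothelial cells in the level of Zbtb46 was not tested.

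Cd209a, a C-type lectin of cDC2 and of dendritic cells that derive from monocytes (gene 170786, chr8:3743395-3748984, minus strand), stood at 2.23 FPKM in fl/fl and at 3.59 in AD1KO, 1.61-fold higher, from about 54 and 85 reads (log2 ratio 0.68, interval 0.16 to 1.19). It was the only 1 of the 10 genes that was higher with the whole interval above 0. Siglech, the sialic acid-binding lectin of pDC (gene 233274, chr7:63023548-63034295, plus strand), was at 0.60 and 0.41 FPKM, about 24 and 17 reads. Its log2 ratio of -0.54 just passed the threshold, but the interval of -1.47 to 0.48 holds 0, so no difference could be detected here either.

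The genes of mature dendritic cells differed from each other. Ccl22, a chemokine that attracts T cells through CCR4 (gene 20299, chr8:97269490-97275599, plus strand), stood at 5.28 FPKM in fl/fl and at 2.01 in AD1KO, 2.63-fold lower, from about 158 and 59 reads (log2 ratio -1.39, interval -1.86 to -0.96). Fscn1, the actin-bundling protein fascin of dendritic cell protrusions (gene 14086, chr5:143722022-143734864, plus strand), had the highest level of the 10 genes, 29.5 and 25.5 FPKM. Its log2 ratio was -0.21 (interval -0.33 to -0.10), which fell short of the threshold and did not overlap that of Ccl22. Ccl22 is made by macrophages too, and Fscn1 by endothelial, mesenchymal and nerve cells.

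**Figure D3:**
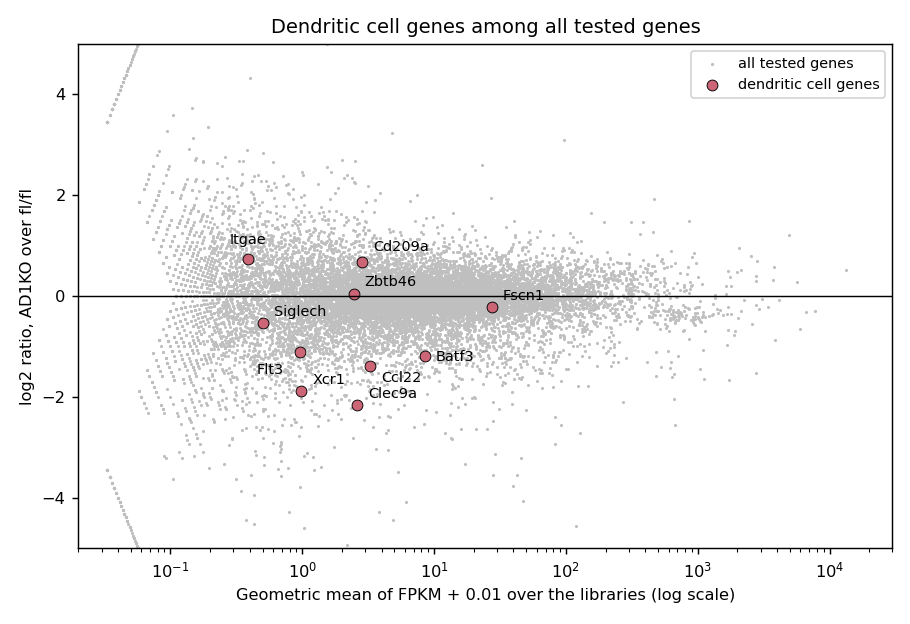
Log2 ratio of AD1KO over fl/fl against the geometric mean of FPKM plus 0.01 (log axis) for all 15839 tested genes in grey and the 10 dendritic cell genes in pink. The vertical axis ends at 5 in either direction, which leaves out 131 genes, and Clec9a and Xcr1 lie below most of the grey points at their level while Zbtb46 and Fscn1 lie within it.

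Other leukocyte genes were lower in AD1KO as well, so each dendritic cell gene was set beside Ptprc, which encodes CD45 of all leukocytes. Ptprc stood at 27.3 FPKM in fl/fl and at 11.3 in AD1KO (log2 ratio -1.27, interval -1.38 to -1.17), and the 5 general leukocyte genes were all lower, with ratios from -1.59 to -1.16. For every 100 FPKM of Ptprc, Clec9a stood at 20.2 FPKM in fl/fl against 10.8 in AD1KO, and the interval of its own log2 ratio does not overlap that of Ptprc. Xcr1 stood at 6.88 and 4.43 on this scale, with an interval that just meets that of Ptprc. Flt3 stood at 5.13 and 5.67 for every 100 FPKM of Ptprc, Batf3 at 47.1 and 50.1, Ccl22 at 19.3 and 17.8, and Siglech at 2.20 and 3.63, and the intervals of these 4 genes hold the ratio of Ptprc. Relative to Ptprc, Zbtb46 went from 8.82 to 22.1, Cd209a from 8.17 to 31.8, Fscn1 from 108 to 226 and Itgae from 1.06 to 4.34, and the intervals of these 4 genes lie wholly above that of Ptprc. Zbtb46 and Fscn1 are also made by cells other than leukocytes, as given above, so a level per Ptprc is not a level per leukocyte for them. The part that a change in leukocyte number, or RNA of other cells, has in these values was not tested.

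The markers of single leukocyte types differed from each other in the same comparison. Macrophage markers had a median log2 ratio of -1.04 over 12 genes, 10 lower and 0 higher, with Lyz2 at 2341 and 1187 FPKM and C1qb at 1724 and 631 FPKM. T cell markers had a median of -1.54 over 10 genes, 9 of them lower, with Cd3g at 25.8 and 7.12 FPKM and Lck at 11.4 and 3.67 FPKM. All 8 NK cell markers were lower, with a median of -2.05 and ratios from -2.91 to -1.57, and among them Nkg7 was at 32.6 and 8.04 FPKM and Gzma at 12.2 and 3.30 FPKM. B cell markers had a median of -0.69, with 5 of 8 lower, Cd79a at 47.5 and 29.3 FPKM and Cd79b at 25.6 and 16.0 FPKM. The ratios of Clec9a and Xcr1 thus lie within the range of the NK cell markers and below every B cell marker, whose lowest ratio was -0.95. All 10 adipocyte markers had ratios above 0, with 8 of them higher and a median of 0.56. None of these markers was listed at 0 in either library, and the summed FPKM of the macrophage markers, 7145 and 3113, far exceeded the 62.0 and 42.5 of the 10 dendritic cell genes. How far macrophages add to Ccl22, Cd209a or Flt3 was not tested.

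The molecules that bind or pair with the products of the 10 genes were mostly lower as well. Of 11 such genes, 9 were lower and 0 higher, with a median log2 ratio of -1.06. Flt3l, which encodes FLT3 ligand, stood at 13.9 FPKM in fl/fl and at 10.8 in AD1KO, a ratio of -0.36 (interval -0.61 to -0.11) that fell short of the threshold, while its receptor Flt3 had a log2 ratio of -1.12. Xcl1, the ligand of Xcr1 that NK cells and CD8+ T cells secrete, was at 7.65 and 2.23 FPKM (log2 ratio -1.77, interval -2.71 to -0.93), so receptor and ligand were both lower. Itgb7, the integrin chain that pairs with Itgae, was at 15.1 and 7.23 FPKM (log2 ratio -1.06), against the higher ratio of Itgae itself. Cdh1, the E-cadherin to which that pair binds, was at 0.23 and 0.08 FPKM, about 17 and 6 reads (log2 ratio -1.42, interval -3.12 to -0.08).

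Tyrobp, the adaptor DAP12 through which Siglec-H signals, was at 1077 and 474 FPKM with a log2 ratio of -1.19, and it serves many myeloid and NK cell receptors. Ccl17, the chemokine that shares the receptor CCR4 with Ccl22, rested on about 5 and 7 reads, with an interval from -1.37 to 2.50 that shows no detectable difference. Ccr4 itself had about 8 reads in fl/fl and was listed at 0 in AD1KO. Against the 3 reads that a listing of 0 allows, 8 reads are 2.64-fold more at equal depth, which takes the 8 as exact. The upper end of its counting interval was a log2 ratio of -0.75, a smaller difference. The median of the 11 genes was also -1.06 with Ccr4 set at the 2.64-fold value. The listed transcription factors that pair with BATF3 on DNA were all lower, with Jun just past the threshold. Irf8, which cDC1 need as they do Batf3, was at 56.6 and 23.8 FPKM (log2 ratio -1.25), Irf4 at 2.72 and 1.82 FPKM (-0.58), Junb at 35.8 and 20.5 FPKM (-0.81) and Jun at 23.7 and 16.6 FPKM (-0.51). Irf8 and Irf4 are also expressed in macrophages and lymphocytes.

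**Figure D4:**
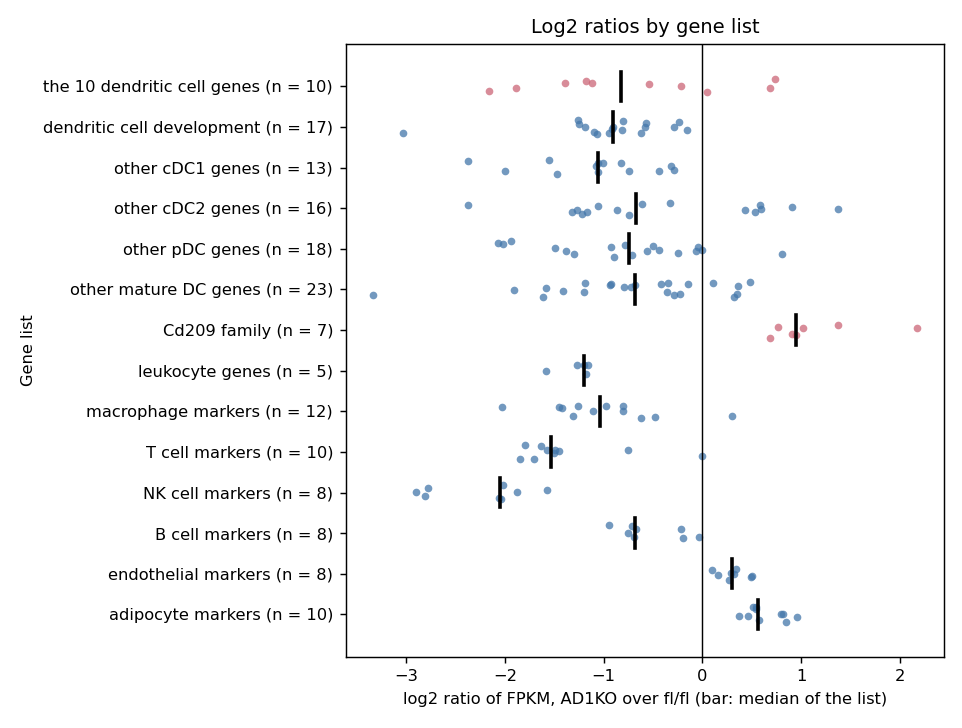
Log2 ratios of AD1KO over fl/fl for the tested genes of each list, 1 point a gene, with the number of tested genes in brackets and a bar at the median of the list. The 10 dendritic cell genes (median -0.83) spread over both sides of 0, the NK cell markers lie furthest left (median -2.05), and the Cd209 family and the adipocyte markers lie right of 0 (medians 0.95 and 0.56).

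The other genes known for each subset were then counted. Of 13 further cDC1 genes, 10 were lower and 0 higher, with a median log2 ratio of -1.06. Tlr11, a Toll-like receptor of cDC1, had the largest difference, from 1.24 to 0.23 FPKM (log2 ratio -2.38, interval -3.32 to -1.61). Cadm1, an adhesion molecule of cDC1 that stromal cells also make, was at 17.01 and 6.10 FPKM (log2 ratio -1.48, interval -1.64 to -1.32). The most abundant were Ifi205, at 62.7 and 29.6 FPKM (-1.08), Naaa, an amide hydrolase, at 61.3 and 36.6 FPKM (-0.74), and Ppt1, a lysosomal thioesterase, at 54.7 and 40.4 FPKM (-0.44), none of which is restricted to cDC1.

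The further cDC2 genes went both ways. Of 16 tested, 9 were lower and 5 higher, with a median log2 ratio of -0.68, and Cd207, which encodes langerin, was not tested, as it was listed at 0 in fl/fl and had about 2 reads in AD1KO. Sirpa, an inhibitory receptor that binds CD47, was at 120 and 53.6 FPKM (log2 ratio -1.17), Itgax, which encodes CD11c, at 51.4 and 20.5 FPKM (-1.32), and Clec10a, a galactose-binding lectin, at 109 and 71.4 FPKM (-0.61). All 3 are shared with macrophages. Cd7 had the largest difference, from 10.2 to 1.95 FPKM (log2 ratio -2.37), and it marks NK and T cells as well. The 5 higher genes, named after their values were seen, were Cd209d (log2 ratio 1.37), Mgl2 (0.53, from 12.3 to 17.8 FPKM), Cd33 (0.59, from 1.14 to 1.72 FPKM), and Cd209e and Clec4a4, which had at most about 4 reads in a library. Mgl2, also called CD301b, marks dermal and other cDC2 and some macrophages, and its interval ran from 0.32 to 0.74, which overlaps that of Cd209a.

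Of 18 further pDC genes, 12 were lower and 1 (Smim5, about 4 and 7 reads) higher, with a median log2 ratio of -0.75. The whole interval lay below 0 for 9 of the 12 lower genes, and 8 of the 18 intervals hold 0. Bst2, a surface protein that interferon induces in many cells, was at 190 and 77.0 FPKM (log2 ratio -1.30), Ly6c2, shared with monocytes, at 39.2 and 9.62 FPKM (-2.03), Irf7, the regulator of type I interferon genes, at 34.4 and 13.2 FPKM (-1.38), and the inhibitory receptor Lair1 at 17.3 and 4.49 FPKM (-1.94). Tcf4, the factor that sets pDC identity and that stromal cells express too, was chosen after its values were seen and was at 14.9 and 14.3 FPKM (log2 ratio -0.06, interval -0.16 to 0.03). Of 23 tested further genes of mature dendritic cells, 12 were lower and 0 higher, with a median of -0.68. Ratios lay above 0 for 5 of the 23, and the whole interval lay above 0 for 2 of them. These were Cd200 (log2 ratio 0.35, interval 0.16 to 0.53) and Tbc1d4 (0.32, interval 0.14 to 0.50), named after their values were seen. The costimulatory genes were among the largest differences, with Cd40 at 10.6 and 2.81 FPKM (log2 ratio -1.90, interval -2.29 to -1.54), Cd83 at 42.6 and 14.2 FPKM (-1.59) and Cd86 at 9.71 and 3.65 FPKM (-1.41). The part of other cell types in the levels of Cd40, Cd83 and Cd86 was not tested. Tmem123 at 51.3 and 44.0 FPKM (-0.22) and Anxa3 at 43.2 and 33.9 FPKM (-0.35) fell short of the threshold. Ccr7, the receptor by which mature dendritic cells and naive lymphocytes reach lymph nodes, was picked with its values in view and was at 4.28 and 2.67 FPKM (log2 ratio -0.68, interval -1.09 to -0.29).

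Cd209a belongs to a cluster of lectin genes on chromosome 8, and its relatives were higher too. All 7 genes of the family in the table were higher in AD1KO, with log2 ratios from 0.68 for Cd209a to 2.18 for Cd209b, and the whole interval lay above 0 for 6 of them. Cd209b, which marginal zone and other macrophages use to bind polysaccharides, went from 1.46 to 6.64 FPKM (interval 1.74 to 2.66). Cd209d was at 6.52 and 16.9 FPKM (log2 ratio 1.37), Cd209g at 4.72 and 9.59 FPKM (1.02), Cd209f at 19.9 and 38.4 FPKM (0.95) and Cd209c at 2.22 and 3.77 FPKM (0.76). Cd209e had about 2 and 4 reads, which shows no detectable difference. Several of these genes are known from resident macrophages. Of the 12 macrophage markers, which were not chosen to mark resident cells, 11 had ratios below 0, among them Mrc1 (log2 ratio -0.80) and Mertk (-0.48). Cd163 was the only 1 above 0, at 5.39 and 6.62 FPKM (log2 ratio 0.30, interval 0.16 to 0.43), which fell short of the threshold. Cd163, Mrc1 and Mertk were picked with their values in view. Which cells the reads of the Cd209 family came from was not tested.

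Shared reads within the family were examined by comparing transcripts. None of the 50-base stretches of Cd209a was found in the coding transcripts of another gene, while 29.7% of those of Cd209f were found in Cd209g and 37.2% of those of Cd209g in Cd209f, so the values of that pair are uncertain. The 7 genes together had about 728 reads in fl/fl against 1554 in AD1KO (log2 ratio 1.11, interval 0.98 to 1.24). The share of such stretches was 0% for 8 of the 10 dendritic cell genes, 1.63% for Xcr1 and 0.25% for Siglech.

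**Figure D5:**
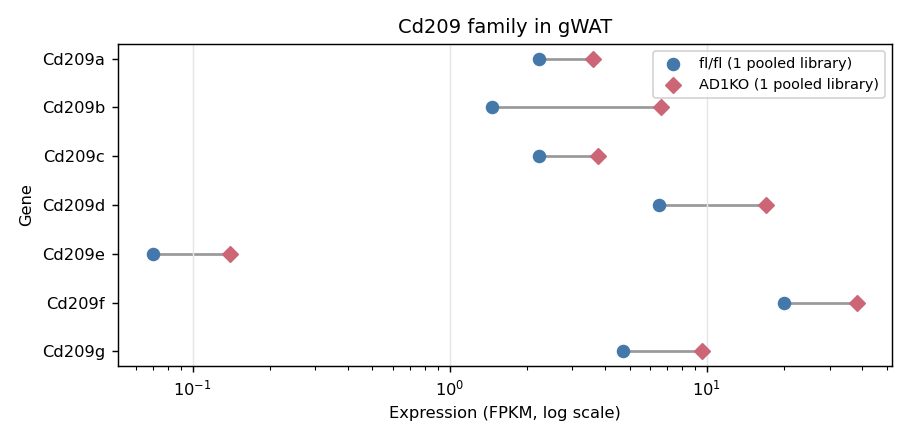
Expression of the 7 Cd209 family genes of the table in FPKM on a log axis, with circles for the fl/fl library and diamonds for the AD1KO library. The diamond lies right of the circle for each gene, with the widest gap for Cd209b (1.46 to 6.64 FPKM).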

How the data were processed

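RNA-Seq was performed on gWAT of fl/fl and AD1KO mice, 1 library of pooled RNA from 4 animals a group. The study's methods give mm9 for the alignment of clean reads, while the sample records of the series name both mm9 and mm10. The aligner and quantifier are not given in the sources used here. The authors deposited an expression value per gene, taken to be FPKM because low values step by what 1 read is worth at a given length, with 0 written as 0.01, the gene length, and their own fold changes, P values and FDR, which were not used. Bisulfite sequencing samples are not analysed here.

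Values of 0.01 were set to 0, and log2 ratios were taken as described above. Depth and a length correction were fitted per library so that low values fell on whole reads. This gave about 17550000 reads in fl/fl, 17350000 in AD1KO and a correction of 114 bases. Of 458 and 452 values under 4.5 reads, 76.6% and 74.8% were whole within the larger of 0.02 reads and the reads that 0.006 FPKM stands for. The fit was chosen to raise this share, so the share is no separate check of the estimated reads. The table lists 726 genes at 0 in fl/fl and 730 in AD1KO. Reads without molecular identifiers are not independent molecules, so intervals and the floor of 3 reads cover counting error only.

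The 10 genes and all lists were chosen with earlier results of these data known. Named beyond the 10 were their partners, the 3 most abundant genes of each dendritic cell list and its 3 largest log2 ratios where a gene reached 1 FPKM in a library, and the 2 most abundant markers of every other cell type. The Cd209 family was named for possible shared reads. Tcf4, Ccr7, Batf, Cd163, Mrc1, Mertk, Smim5, Cd200, Tbc1d4 and the higher cDC2 genes fall outside this rule and were chosen after their values were seen. Apart from Batf, which is set beside Batf3, no gene was named for likeness of pattern, since both libraries together give 1 ratio a gene. Alternatives were pseudocounts of 0.1 and 1 FPKM, scaling by upper quartile, median of ratios or trimmed mean of M-values (trimming 30% of the ratios and 5% of the levels from either end), no filter or a minimum of 1 FPKM, a threshold of 1, and the whole counting interval past 0. Gene positions and shared 50-base stretches were taken from the GENCODE annotation and coding transcripts of mm9. The annotation behind the deposited values may differ, as Clec9a is given 5097 bases there against 3333 exonic bases in GENCODE. The steps were tested on simulated data. Scripts ran in Python 3.11.15, with pandas 2.3.3 and NumPy 2.4.6 for tables, SciPy 1.17.1 for intervals and Matplotlib 3.10.9 for figures.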

Additional observations from a re-analysis of the deposited data

How the results depend on the processing

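No paired analysis was possible because each group is 1 pooled library. The count of lower genes, 6, was 5 or 6 in the 9 alternatives, with Siglech the gene that dropped out, and Fscn1 in its place with the whole counting interval past 0. The count of higher genes, 2, was 1 with a pseudocount of 1 FPKM, with a minimum of 1 FPKM, which leaves Itgae out, and with the whole counting interval past 0, and it was 0 at a threshold of 1. The median of the 10 genes, -0.83, ran from -1.15 to -0.38 in 7 alternatives, the latter with a pseudocount of 1 FPKM, which shrinks low genes by construction. At that pseudocount the median of the 11 partners went from -1.06 to -0.48, below the threshold in size, and that of the NK cell markers from -2.05 to -1.23, beside -1.25 for the T cell markers, so the NK cell markers no longer had the lowest median. Clec9a ran from -2.12 to -1.55, Xcr1 from -1.85 to -0.94, Flt3 from -1.07 to -0.55, Cd209a from 0.51 to 0.77, Itgae from 0.21 to 0.82 and Siglech from -0.50 to -0.18 in the 5 alternatives run for single genes, and Dnmt1 from -1.05 to -0.88. No value past the threshold changed sign in these. The scalings shifted log2 ratios by 0.04 to 0.09. Itgae and Siglech rested on under 60 reads over both libraries, which limits what their ratios show.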

Other observations

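The genes that steer the development of dendritic cells and their precursors were not described above as a list. Of 17 such genes, 14 were lower in AD1KO and 0 higher, with a median log2 ratio of -0.91. Spi1, which encodes the myeloid factor PU.1, stood at 129 FPKM in fl/fl and at 60.2 in AD1KO (log2 ratio -1.10), and the cytokine receptors Csf1r, at 127 and 72.8 FPKM (-0.81), and Csf2ra, at 83.7 and 44.4 FPKM (-0.92), were the next in level. Batf2, a relative of Batf3 that interferon induces in macrophages, had the largest difference, from 10.3 to 1.25 FPKM (log2 ratio -3.04, interval -3.65 to -2.46), and this interval lies wholly below that of Batf3. Batf, the third gene of the family, was chosen after its values were seen and was at 11.9 and 5.22 FPKM (log2 ratio -1.19, interval -1.60 to -0.77), close to Batf3. Runx3 was at 1.45 and 0.60 FPKM (log2 ratio -1.26). Most of these genes act in macrophages or lymphocytes too, and the part of each cell type in their levels was not tested.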
